A study of Mus musculus with 24 samples.

Results

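The 10 genes here mark endothelial cells that line the liver sinusoids, capillaries through which blood from gut and hepatic artery reaches the hepatocytes. They were taken by symbol from a table of 23240 rows: Stab1, Stab2, Lyve1, Fcgr2b and Clec4g as scavenger and uptake receptors, Pecam1, Cdh5 and Eng as junction and surface proteins, and Kdr and Tek as receptor tyrosine kinases. Each symbol had 1 row, and all 10 passed the filter on low counts that left 13773 genes for testing. RNA was sequenced from whole livers of 24 female NSG mice (NOD scid gamma, a strain without functional lymphocytes), which the labels give as 8 weeks old. Tail-vein injections were given 2 times a week for 5 weeks, and the liver was collected 2 days after the last.

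Of the 4 groups of 6 libraries, 3 had received about 10 µg of extracellular vesicles (EVs) per injection. MCF10A EV came from a non-tumorigenic human breast epithelial line, and its library names read 10A-pBABE. MCF10A/miR-122 EV came, per the label, from MCF10A cells with miR-122, a microRNA that hepatocytes make in large amounts. MDA-MB-231 EV came from a metastatic human breast cancer line. The fourth group had received phosphate-buffered saline (PBS). Because NSG mice lack T, B and natural killer cells, all groups describe a liver without adaptive immunity. Each library is taken as 1 mouse, which the labels do not state.

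Sinusoidal endothelial cells have open pores without a diaphragm, lack an ordinary basement membrane, and clear colloids, modified proteins and immune complexes from blood through scavenger and Fc receptors. Vascular endothelial growth factor, made by neighbouring hepatocytes and stellate cells and read through Kdr, keeps them in this state. When they lose it, a process called capillarisation, they tend to lose scavenger receptors such as Stab2 and Lyve1 while genes of ordinary capillaries rise.

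Libraries held 21336818 to 33732639 counts. For 12 libraries the names contradict the labels: the 6 labelled MCF10A/miR-122 EV carry names of the MDA-MB-231 line, whereas names of the miR-122 line stand on the 6 labelled MDA-MB-231 EV. The groups are called by their labels below. The same 12 libraries stood apart from the others, with Serpina3a, a protease inhibitor gene of hepatocytes, at 0.285 to 5.85 CPM (a count scaled to library size), against 109.6 to 325 CPM in the MCF10A EV and PBS libraries. The labels name no library set, and the split is shown here by Serpina3a alone. Below, a library set means either these 12 libraries or the others, without saying what set them apart. Such a set and a treatment cannot be told apart in the comparisons of either of those groups with MCF10A EV or PBS. Only MCF10A EV against PBS and MDA-MB-231 EV against MCF10A/miR-122 EV lie within a set so defined.

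All 10 genes were detected in every library, from 108 counts for Lyve1 to 2385 counts for Stab2 in a single library. Divided by exon length in kilobases (kb), the median levels over the 24 livers ran from 19.7 CPM per kb for Clec4g and 16.9 for Eng, through 9.22 for Fcgr2b, 6.47 for Stab2, 5.83 for Stab1, 4.34 for Kdr, 3.89 for Cdh5, 3.65 for Lyve1 and 2.76 for Pecam1, to 1.64 CPM per kb for Tek. Neighbours in this order overlapped in their ranges except Eng, whose lowest liver (11.9 CPM per kb) was above the highest for Fcgr2b (11.7 CPM per kb). The lengths come from a newer annotation than the one behind the counts, so the order is approximate.

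Upstream sequence was available for 7 of the 10 genes, from RefSeq on GRCm38.p6: 250 bases before the gene's start and 50 after it. Lyve1, Pecam1 and Cdh5 had no entry. Fcgr2b and Clec4g are not printed, though their levels also varied with the others (r = 0.87 and 0.85 with the mean of the other 9). A set of 5 is printed, in which Stab2, Eng, Kdr and Tek varied together while Stab1 followed them least, as described further down. They are Stab1 (chr14:31168592-31168891, minus strand), Stab2 (chr10:87007893-87008192, minus), Eng (chr2:32646345-32646644, plus), Kdr (chr5:75978406-75978705, minus) and Tek (chr4:94739039-94739338, plus), each 5′ to 3′ along its gene. Capitals mark AGGAAG, a 6-letter form of the site of ETS-type factors, and AGATAA, a 6-letter form of the GATA factor site, read on either strand. Shorter or other forms of these sites are not marked.
Stab1: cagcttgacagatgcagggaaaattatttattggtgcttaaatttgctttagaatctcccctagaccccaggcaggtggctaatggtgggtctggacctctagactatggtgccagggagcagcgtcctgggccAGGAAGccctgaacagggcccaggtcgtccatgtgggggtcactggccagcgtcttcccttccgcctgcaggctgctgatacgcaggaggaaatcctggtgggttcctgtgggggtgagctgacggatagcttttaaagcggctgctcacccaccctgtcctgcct
Stab2: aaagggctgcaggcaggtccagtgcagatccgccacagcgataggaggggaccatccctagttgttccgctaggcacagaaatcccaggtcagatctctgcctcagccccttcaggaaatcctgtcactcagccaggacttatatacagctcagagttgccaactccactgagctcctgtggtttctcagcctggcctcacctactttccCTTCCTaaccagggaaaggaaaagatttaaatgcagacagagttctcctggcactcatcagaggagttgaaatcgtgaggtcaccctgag
Eng: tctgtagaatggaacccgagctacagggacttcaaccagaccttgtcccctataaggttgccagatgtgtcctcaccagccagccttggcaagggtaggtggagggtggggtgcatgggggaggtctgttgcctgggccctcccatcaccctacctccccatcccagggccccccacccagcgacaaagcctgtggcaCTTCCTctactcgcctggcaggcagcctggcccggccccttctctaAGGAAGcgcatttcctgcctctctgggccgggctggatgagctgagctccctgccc
Kdr: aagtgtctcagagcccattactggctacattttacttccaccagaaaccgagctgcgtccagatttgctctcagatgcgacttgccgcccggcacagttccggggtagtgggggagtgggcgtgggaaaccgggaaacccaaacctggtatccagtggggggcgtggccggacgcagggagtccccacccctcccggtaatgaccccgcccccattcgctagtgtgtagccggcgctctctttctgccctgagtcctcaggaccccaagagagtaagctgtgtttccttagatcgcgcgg
Tek: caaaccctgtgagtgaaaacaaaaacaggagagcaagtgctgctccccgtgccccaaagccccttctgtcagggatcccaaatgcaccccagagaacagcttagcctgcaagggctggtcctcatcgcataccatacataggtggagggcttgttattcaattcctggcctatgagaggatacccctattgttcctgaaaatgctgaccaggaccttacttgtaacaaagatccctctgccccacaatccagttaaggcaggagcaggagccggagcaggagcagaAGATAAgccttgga
AGGAAG or its complement was found in 4 of the 7 (Stab1, Stab2, Clec4g and Eng), against 35.4% of 32851 promoters of the same length. AGATAA was found in 1 of the 7, Tek, against 11.2% of promoters. These matches describe letters in a window and say nothing of binding. Kdr had neither of these 6-letter forms in its window, and other forms of the sites were not searched.

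Across the treatment groups, the endothelial signature was nearly level. Of 60 tests (10 genes in 6 comparisons), 1 passed: Stab1 was higher in MCF10A/miR-122 EV livers than in PBS livers. The other 59 missed the threshold of an adjusted p of 0.05 (edgeR's quasi-likelihood test with Benjamini-Hochberg adjustment over all 13773 genes), and none of those had an unadjusted p under 0.05. Over all genes tested, an unadjusted p under 0.05 was found for 17.3%, 31.4% and 26.9% of genes in MCF10A EV, in MCF10A/miR-122 EV, then in MDA-MB-231 EV, each against PBS. It was found for 30.0% in MCF10A/miR-122 EV against MCF10A EV, 22.3% in MDA-MB-231 EV against MCF10A EV and 8.19% in MDA-MB-231 EV against MCF10A/miR-122 EV. In no comparison were the 2 groups of livers without overlap for any of the 10 genes, a state that 0.900%, 5.88%, 6.22%, 5.63%, 5.05% and 0.733% of all genes reached in the same order of comparisons. The 95% interval of every one of the 60 fold changes lay inside a 2-fold change in either direction, and 45 lay inside 1.5-fold. Since this is whole liver, fewer endothelial cells and less RNA per cell cannot be told apart.

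**Figure D1:**
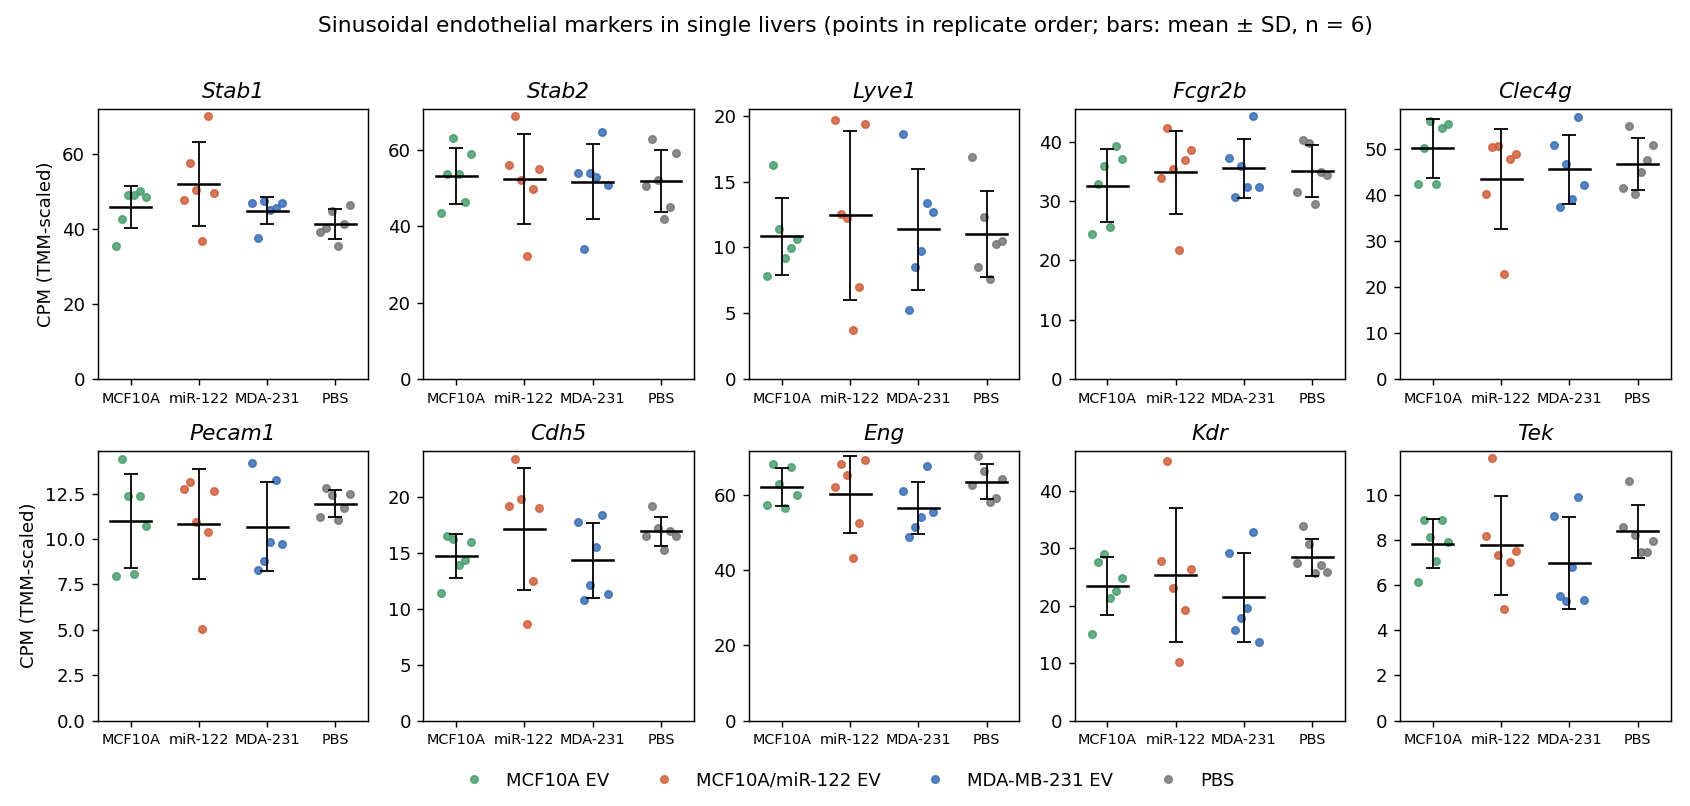
Level of each of the 10 genes in single livers, in CPM on TMM-scaled library sizes. Points are the 6 livers of each group in replicate order, bars the mean ± SD; the axis labels shorten the group names given in the legend. The groups overlapped for every gene, and the lowest MCF10A/miR-122 EV liver, replicate 4, was the lowest of its group for all 10.

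Among the scavenger and uptake receptors, Stab1 encodes stabilin-1, an uptake receptor for modified lipoproteins and other waste that sinusoidal endothelium shares with some macrophages. In MCF10A/miR-122 EV livers it was at 36.7 CPM in the lowest, 49.95 CPM at the median and 70.2 CPM in the highest liver, against 35.6, 40.9 and 46.4 CPM in PBS livers. In 5 of 6 MCF10A/miR-122 EV livers it was above the PBS median, and the ranges overlapped through replicate 4. The means were 52.0 ± 11.2 and 41.3 ± 3.92 CPM (SD, n = 6 each), a log2 fold change of 0.33 (SE 0.11 and 95% interval 0.10 to 0.56, adjusted p = 0.0411 by edgeR).

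In this comparison 17.9% of all genes tested were called, 8.35% as higher, so 1 of 10 called is near the background. The call depended on the fit. It held with RLE scaling, either other filter and DESeq2, and was lost with limma-voom (0.31, adjusted p = 0.0584), with only the 12 libraries of the 2 groups (0.33, adjusted p = 0.103), and without any of 8 of the 12 livers taken singly (PBS replicates 1, 2, 4 and 5, MCF10A/miR-122 EV replicates 2, 3, 5 and 6). Without replicate 5, the highest liver, the log2 fold change was 0.23 (adjusted p = 0.134), and without replicate 4, the lowest, it was 0.41 (adjusted p = 0.00551). If the library names are right, the call belongs to MDA-MB-231 EV against PBS.

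Macrophage genes also differed in this group. Of 11 Kupffer cell and macrophage markers, 7 were higher in MCF10A/miR-122 EV than in PBS livers and none was lower. Their median log2 fold change was 0.47 against a median near 0 over all genes, of which 8.35% were called higher. Against MCF10A EV livers 9 of the 11 were higher, where 16.2% of all genes were called in either direction. Inside a library set, Cd5l, Vsig4 and Emr1 were lower in MDA-MB-231 EV than in MCF10A/miR-122 EV livers. There 0.254% of all genes were called. How these other counts depend on single livers is not given here. Marco, a macrophage scavenger receptor, was at 26.6 ± 12.4 CPM in MCF10A/miR-122 EV and 13.6 ± 3.84 CPM in PBS livers (SD, n = 6 each; log2 fold change 0.97 with SE 0.25, adjusted p = 0.00911). The 11 markers summed to 326 to 760 CPM in MCF10A/miR-122 EV livers, against 298 to 370 CPM in PBS livers. Replicate 5, the highest MCF10A/miR-122 EV liver for Stab1 (70.2 CPM), had a sum of 354 CPM, within the PBS range. Replicate 3, with the highest sum, had Stab1 at 50.4 CPM. The part of the macrophage markers in the Stab1 result was not tested. The count of 7 ranged from 3 to 11 with livers left out (3 without MCF10A/miR-122 EV replicate 3, 11 without replicate 4, 4 without PBS replicate 4 or 6), and was 9 by DESeq2, 5 by limma-voom and 3 with the 12 libraries alone. By the library names it was 0 in MCF10A/miR-122 EV against PBS and 7 in MDA-MB-231 EV against PBS.

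The opposite strand of Stab1 overlaps Nt5dc2, and the strand setting of the counting is not given, so reads from the shared stretch cannot be assigned. Against the other groups Stab1 missed the threshold: it was at 37.7, 46.2 and 47.4 CPM in the lowest, median and highest MDA-MB-231 EV liver and at 35.5, 48.8 and 50.3 CPM in the MCF10A EV livers. Log2 fold changes against PBS were 0.12 for MDA-MB-231 EV (adjusted p = 0.519) and 0.15 for MCF10A EV (adjusted p = 0.500). The difference between MDA-MB-231 EV and MCF10A/miR-122 EV was -0.21 (95% interval -0.44 to 0.02, adjusted p = 0.671), so Stab1 is not shown to differ between these EVs.

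Stab2, a scavenger receptor for hyaluronan, differed little from PBS in any EV group. It averaged 53.3 ± 7.37 CPM in MCF10A EV, 52.3 ± 11.8 CPM in MCF10A/miR-122 EV, 51.7 ± 9.91 CPM in MDA-MB-231 EV and 52.0 ± 8.10 CPM in PBS livers (SD, n = 6 each). Its log2 fold changes against PBS were 0.04, 0.01 and -0.01 in that order of EVs, with 95% intervals from -0.31 at the lowest to 0.34 at the highest. A 1.5-fold loss of Stab2 lies outside all 3 intervals.

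Lyve1, a hyaluronan receptor shared with lymphatic vessels, varied most within groups. It ran from 7.80 to 16.3 CPM in MCF10A EV (median 10.3), from 3.70 to 19.7 CPM in MCF10A/miR-122 EV (median 12.4), from 5.26 to 18.6 CPM in MDA-MB-231 EV (median 11.2) and from 7.59 to 16.8 CPM in PBS livers (median 10.4). The coefficient of variation was 51.8% in MCF10A/miR-122 EV and 29.9% in PBS livers. The intervals of its fold changes against PBS were wide, 0.73 to 1.76 for MCF10A/miR-122 EV for example. Of 4 other lymphatic genes listed, 3 were tested and none passed in any comparison.

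Fcgr2b, the inhibitory Fc receptor through which sinusoidal endothelium takes up small immune complexes, averaged 32.6 ± 6.15 CPM in MCF10A EV, 34.8 ± 7.01 CPM in MCF10A/miR-122 EV, 35.5 ± 5.00 CPM in MDA-MB-231 EV and 35.1 ± 4.31 CPM in PBS livers (SD, n = 6 each). Of its 32-base stretches, 8.77% also occur in Fcgr3, so part of its count may belong to that macrophage gene. Clec4g, a C-type lectin of sinusoidal endothelium, averaged 50.3 ± 6.41, 43.6 ± 10.8, 45.7 ± 7.46 and 46.8 ± 5.71 CPM in MCF10A EV, MCF10A/miR-122 EV, MDA-MB-231 EV and PBS livers. The lowest Clec4g liver of all was MCF10A/miR-122 EV replicate 4, at 23.0 CPM.

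None of the junction and surface genes passed. Pecam1, an adhesion protein of all endothelium, averaged 10.97 ± 2.58 CPM in MCF10A EV, 10.8 ± 3.02 CPM in MCF10A/miR-122 EV, 10.7 ± 2.45 CPM in MDA-MB-231 EV and 11.9 ± 0.729 CPM in PBS livers (SD, n = 6 each). The PBS livers lay close together, with a coefficient of variation of 6.10%, against 22.9% to 27.9% in the EV groups. The difference in spread was not tested.

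Cdh5 (VE-cadherin, the adherens junction protein) was at 14.7 ± 1.95 CPM in MCF10A EV, 17.1 ± 5.43 CPM in MCF10A/miR-122 EV, 14.3 ± 3.35 CPM in MDA-MB-231 EV and 16.9 ± 1.29 CPM in PBS livers (SD, n = 6 each). None of the 6 MCF10A EV livers was above the PBS median of 16.7 CPM, yet the log2 fold change was -0.20 with an adjusted p of 0.581 by edgeR. Eng (endoglin, a co-receptor for the bone morphogenetic proteins Bmp9 and Bmp10) was at 48.9, 54.7 and 67.8 CPM in the lowest, median and highest MDA-MB-231 EV liver, against 58.1, 63.6 and 70.4 CPM in PBS livers. The 2 ranges overlapped, with 1 of 6 MDA-MB-231 EV livers above the PBS median, and the log2 fold change was -0.17 (SE 0.10, 95% interval -0.37 to 0.03, adjusted p = 0.264). Eng overlaps Fpgs on the opposite strand.

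Of the receptor tyrosine kinases, Kdr, the main signalling receptor for VEGF, had the largest fitted difference from PBS of the 10 genes, short of the threshold. It was at 13.6, 18.7 and 32.9 CPM in the lowest, median and highest MDA-MB-231 EV liver, against 25.7, 27.2 and 33.8 CPM in PBS livers. Of 6 MDA-MB-231 EV livers, 4 were below every PBS liver and 2 lay within the PBS range. The log2 fold change was -0.40 (SE 0.24, 95% interval -0.90 to 0.10, adjusted p = 0.296), a fold of 0.757 with an interval of 0.534 to 1.07. Among all genes tested, 11.7% were called in this comparison, and 0 of the 10 endothelial genes by edgeR, DESeq2 or limma-voom.

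In the other EV groups Kdr averaged 23.4 ± 5.00 CPM in MCF10A EV and 25.3 ± 11.6 CPM in MCF10A/miR-122 EV, against 28.4 ± 3.21 CPM in PBS livers (SD, n = 6 each). Tek (Tie2, the receptor for angiopoietins) likewise had its highest mean in PBS and its lowest in MDA-MB-231 EV livers, with 7.82 ± 1.07 CPM in MCF10A EV, 7.76 ± 2.181 CPM in MCF10A/miR-122 EV, 6.97 ± 2.02 CPM in MDA-MB-231 EV and 8.37 ± 1.18 CPM in PBS livers. Its log2 fold change for MDA-MB-231 EV against PBS was -0.26 (95% interval -0.62 to 0.09, adjusted p = 0.339). In MCF10A EV against PBS, where 1.07% of all genes were called, 0 of the 10 passed by edgeR, DESeq2 or limma-voom, and none had an unadjusted p under 0.05.

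**Figure D2:**
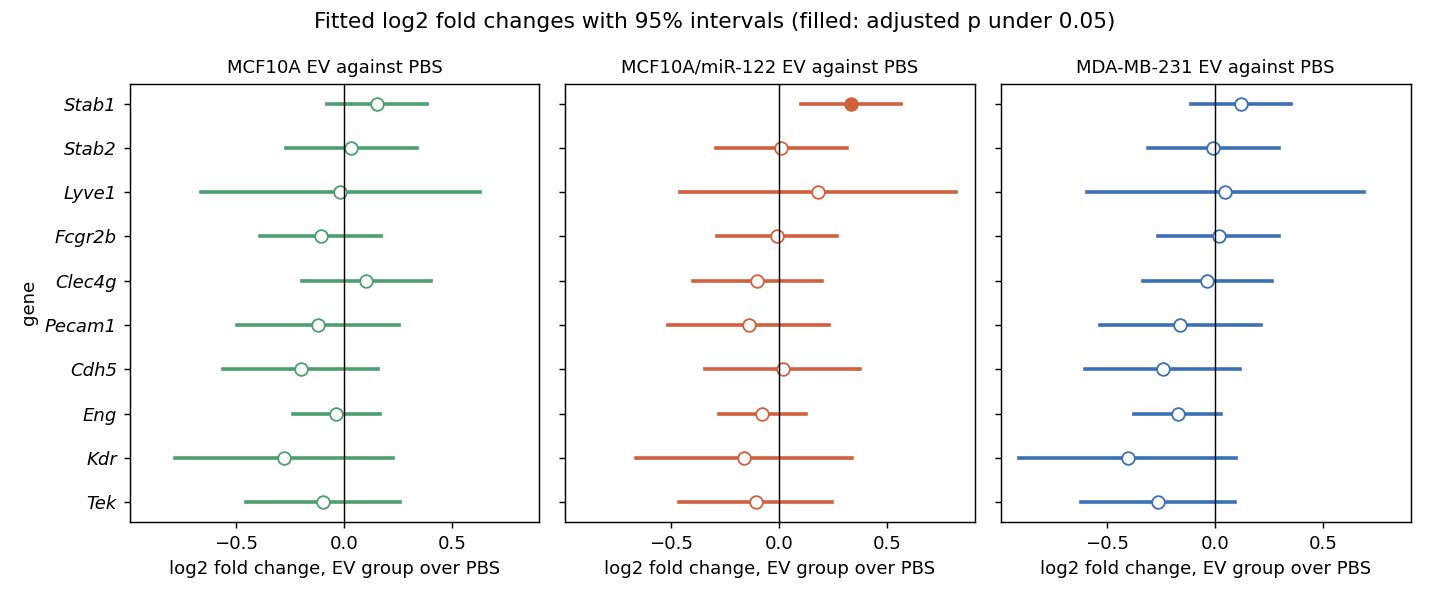
Fitted log2 fold change of each gene in each EV group over PBS (points) with its 95% interval (lines). The filled point, Stab1 in MCF10A/miR-122 EV at 0.33, is the sole call, and the Kdr interval for MDA-MB-231 EV reaches furthest to the left, to -0.90, while still crossing 0.

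Between EV groups none of the 10 passed: 0 in MCF10A/miR-122 EV against MCF10A EV, where 16.2% of all genes were called, 0 in MDA-MB-231 EV against MCF10A EV (7.68%), and 0 in MDA-MB-231 EV against MCF10A/miR-122 EV (0.254%). DESeq2 and limma-voom gave 0 in these too, and no unadjusted p-value was under 0.05 by edgeR. The median log2 fold change of the 10 was 0.04, -0.04 and -0.11 in these comparisons, and -0.07, -0.04 and -0.10 for MCF10A EV, for MCF10A/miR-122 EV and for MDA-MB-231 EV against PBS. Over all genes the median lay within 0.01 of 0.

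Levels relative to Pecam1 and Cdh5, expressed by all endothelium, asked whether a gene changed within the endothelial signal of a liver. The measure was log2(CPM + 1) of the gene minus the mean of the same for Pecam1 and Cdh5, compared by an exact permutation test of 6 against 6 livers (two-sided, smallest possible p 0.00216). Of 48 tests (8 genes, 6 comparisons), 8 had an unadjusted p under 0.05 and 0 had an adjusted p under 0.05. A single test at the smallest possible p would have an adjusted p of 0.104, so no gene could pass alone and the 0 says little. Stab1 differed from PBS livers on this scale by 0.31 in MCF10A EV, 0.42 in MCF10A/miR-122 EV and 0.33 in MDA-MB-231 EV livers (exact permutation p = 0.0130, 0.0108 and 0.0260, adjusted p = 0.208, 0.208 and 0.252). These 3 comparisons share the PBS livers. A difference on this scale also holds that of Pecam1 and Cdh5. Their fitted log2 fold changes against PBS were -0.12 and -0.20 in MCF10A EV and -0.16 and -0.24 in MDA-MB-231 EV. In MCF10A/miR-122 EV they were -0.14 and 0.02. Stab1 itself was at 0.15 in MCF10A EV, 0.33 in MCF10A/miR-122 EV and 0.12 in MDA-MB-231 EV.

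The other low p-values were those of Clec4g, Fcgr2b, Kdr and Tek. Clec4g differed by 0.27 in MCF10A EV against PBS (exact permutation p = 0.0108, adjusted p = 0.208) and by -0.29 in MCF10A/miR-122 EV against MCF10A EV (exact permutation p = 0.0346, adjusted p = 0.252). In MDA-MB-231 EV against PBS, Fcgr2b differed by 0.23 and Kdr by -0.24 (exact permutation p = 0.0303 and 0.0368, adjusted p = 0.252 for both). Tek differed by -0.13 in MDA-MB-231 EV against MCF10A EV (exact permutation p = 0.0476, adjusted p = 0.286). None of these passed after adjustment.

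**Figure D3:**
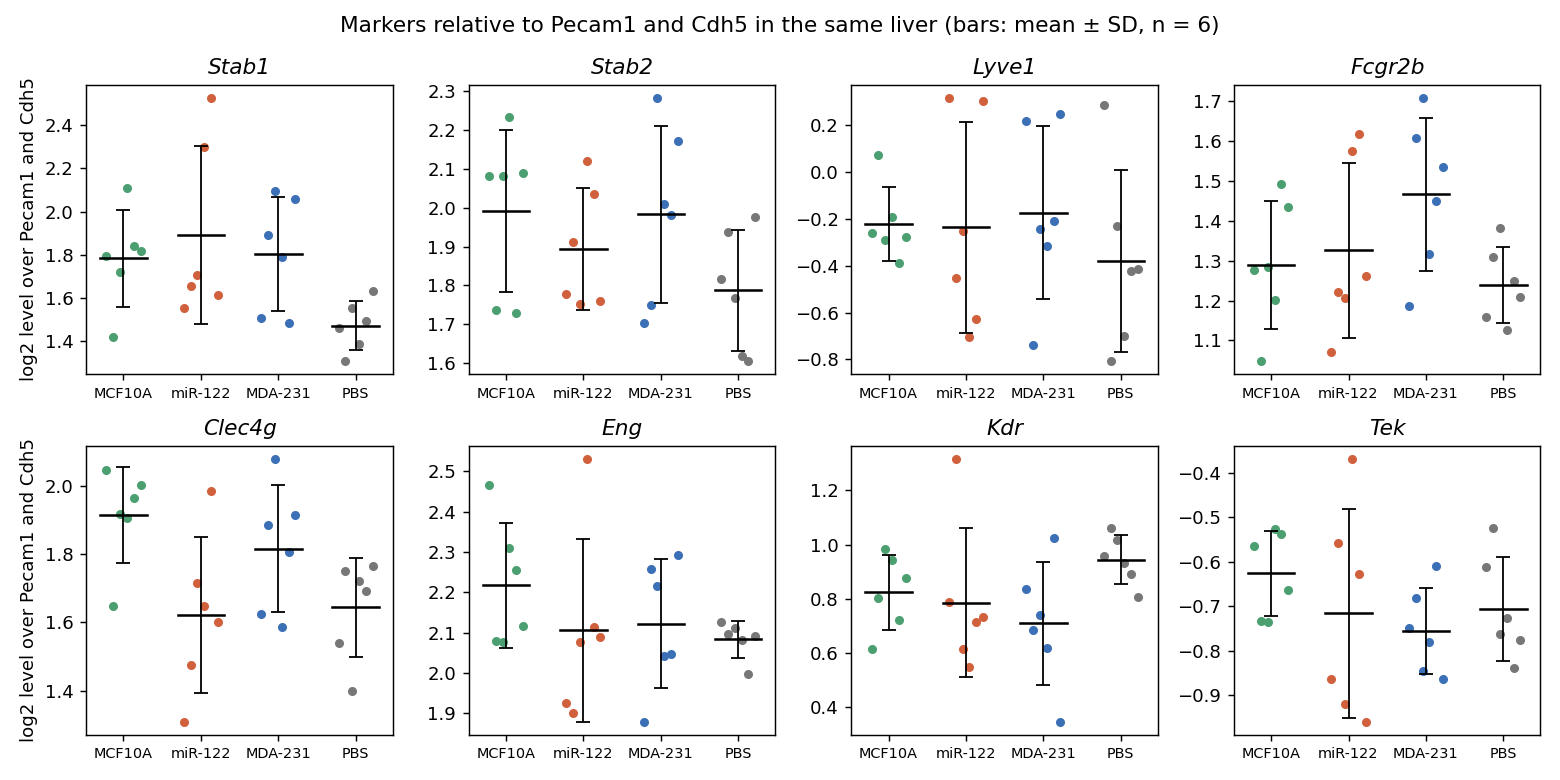
Each gene's log2(CPM + 1) minus the mean of Pecam1 and Cdh5 in the same liver. Points are livers and bars the mean ± SD (n = 6), with axis labels shortened as for the levels. The Stab1 points of the EV groups lie mostly above the PBS points, with means 0.31 to 0.42 higher, and overlap them; the vertical axes differ between panels and do not start at 0.

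The larger variation was between livers of the same group, and 9 of the 10 genes shared it. After subtraction of the group means, the 45 pairs of genes had Pearson r from 0.308 to 0.939 over 24 livers (median 0.758), and 38 had an adjusted permutation p under 0.05. The closest were Cdh5 and Kdr, with r = 0.939 and Spearman's rho = 0.926 (permutation within groups, adjusted p = 9e-05 and 7.5e-05). Without the 2 livers farthest from the Cdh5 median after that subtraction, r was 0.894. Kdr and Tek followed at r = 0.931, and 0.896 without the 2 livers farthest from the Kdr median.

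Of the 36 pairs without Stab1, 35 passed, and of the 9 with Stab1, 3 did: with Fcgr2b (r = 0.676), Clec4g (0.637) and Stab2 (0.626). Against the mean of the other 9 genes, r was 0.93 for Pecam1, 0.91 for Kdr and Cdh5, and 0.55 for Stab1, the lowest. Some pairs rest on few livers. Without the 2 livers farthest for the first gene of a pair, the lowest r among pairs without Stab1 was 0.106. It was that of Lyve1 and Clec4g, without the 2 farthest for Lyve1. The livers left out can differ between pairs. All 10 values of a liver share a library and its scaling.

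A single liver stood out. MCF10A/miR-122 EV replicate 4 was the lowest of its group for 10 of 10 genes, with a summed level of 190 CPM against 314 to 393 CPM in the other livers of that group. Kdr was at 10.2 CPM there and Pecam1 at 5.07 CPM. Without it the 36 pairs without Stab1 had a median r of 0.667, against 0.793 with it, and Cdh5 and Kdr had r = 0.902. The 9 pairs with Stab1 had a median of 0.198, against 0.46. It was also lowest for 22 of 25 other pan-endothelial genes, 14 of 15 other sinusoidal genes, 10 of 11 Kupffer cell markers and 3 of 9 stellate cell markers, while 19.3% of all genes were lowest there.

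The same liver had the highest summed hepatocyte markers of its group, 136214 CPM against 108727 to 126282 CPM. Without it, 9 of the 10 genes had a log2 fold change above 0 for MCF10A/miR-122 EV against PBS, where with it 4 did, though Pecam1, Eng and Kdr were then level with PBS to 2 decimals. The median was then 0.06 in place of -0.04, and the range was -0.01 (Tek) to 0.41 (Stab1). MDA-MB-231 EV against MCF10A/miR-122 EV was then below 0 for all 10, with a median of -0.22, and none passed.

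Other livers leaned the same way less strongly. MCF10A EV replicate 1 was lowest for 8 of the 10 (sum 252 CPM, against 287 to 345 CPM in the rest of its group), MDA-MB-231 EV replicate 2 for 8 (235 CPM, against 281 to 367 CPM) and PBS replicate 4 for 8 (277 CPM, against 302 to 354 CPM). MDA-MB-231 EV replicate 2 was also lowest for 20 of the 25 pan-endothelial genes and MCF10A EV replicate 1 for 16, whereas PBS replicate 4 was lowest for 5. At the upper end, MDA-MB-231 EV replicate 5 was highest for 7 of the 10 and PBS replicate 2 for 8. The medians of the fold changes against PBS were -0.02 without MCF10A EV replicate 1 and -0.05 without MDA-MB-231 EV replicate 2, each for its own group.

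**Figure D4:**
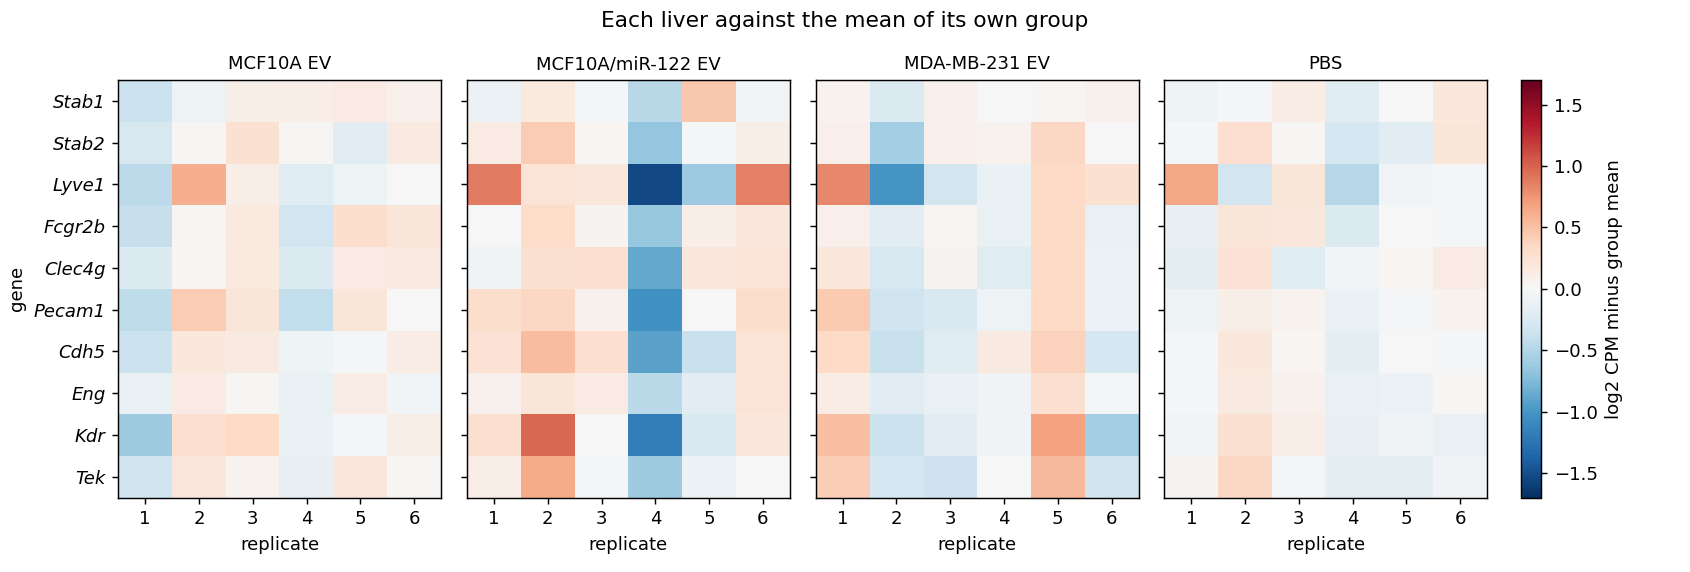
Difference of each liver's log2 CPM from the mean of its own group, by gene (rows) and replicate (columns), on a shared colour scale from blue (lower) to red (higher). MCF10A/miR-122 EV replicate 4 is blue in all 10 rows. Some other columns keep 1 colour, such as MDA-MB-231 EV replicates 1 and 5, above the group mean for all 10 genes. Many columns are mixed, such as PBS replicate 6, with 5 genes above the group mean.

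The genes whose liver-to-liver pattern most resembled the mean of the 10, out of 11107 compared, were Arhgap31 (r = 0.966), Ptprb (0.956), Gpr182 (0.951), Gpr116 (0.941), Mrc1 (0.938) and Eltd1 (0.937), over 24 livers after subtraction of group means. Ptprb is the endothelial phosphatase that acts on Tek, and Mrc1 is the mannose receptor that sinusoidal endothelium uses for uptake. The median r over all compared genes was -0.04. These are descriptions of likeness over the same libraries.

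Beyond the 10, some pan-endothelial genes were called lower. Of 25 pan-endothelial genes, 4 passed as lower in MCF10A/miR-122 EV than in PBS livers (Mmrn2, Sox7, Cldn5 and S1pr1) and 4 in MDA-MB-231 EV than in PBS livers (Mmrn2, Sox18, Cldn5 and S1pr1), with none higher. The medians of the list were -0.17 and -0.18, near 0 over all genes, of which 9.53% and 6.34% were called lower in these comparisons. The difference between 4 of 25 and those shares was not tested. None passed in MCF10A EV against PBS (median -0.18) or in the 3 comparisons between EV groups. The calls therefore lie in comparisons where library set and treatment cannot be told apart.

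S1pr1, the receptor for sphingosine-1-phosphate that steadies endothelial junctions, ran from 30.0 to 45.7 CPM in MCF10A/miR-122 EV (median 40.2) and from 32.7 to 45.6 CPM in MDA-MB-231 EV (median 41.6), against 52.4 to 68.7 CPM in PBS livers (median 58.1). Both EV groups lay wholly below PBS, as all 6 livers lay on 1 side for 5.88% and 6.22% of all genes in these comparisons. The log2 fold changes were -0.60 and -0.55 (SE 0.11 each, adjusted p = 0.000894 and 0.00274 by edgeR). MCF10A EV livers, from 37.3 to 57.1 CPM, overlapped PBS at -0.32 (adjusted p = 0.155).

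Cldn5, the tight-junction claudin of endothelium, ran from 2.86 to 5.54 CPM in MCF10A/miR-122 EV and from 3.14 to 5.31 CPM in MDA-MB-231 EV, against 5.66 to 8.24 CPM in PBS livers. Neither EV group overlapped PBS, and the log2 fold changes were -0.70 and -0.63 (SE 0.15 each, adjusted p = 0.00282 and 0.00857). S1pr1 and Cldn5 passed without any liver taken singly in both comparisons. Mmrn2 and Sox18 in MDA-MB-231 EV against PBS were each lost without any of 8 of the 12 livers. The count of 4 in that comparison was 2 without PBS replicate 1, 2 or 5 or MDA-MB-231 EV replicate 2, 3 or 6, and 6 with the 12 libraries alone.

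Of 15 other sinusoidal genes, Gata4 was called lower in MCF10A/miR-122 EV, and in MDA-MB-231 EV, against PBS and against MCF10A EV. Over all genes, 9.53% and 6.34% were called lower against PBS, so 1 of 15 is near the background. Against MCF10A EV, 16.2% and 7.68% were called in either direction. Gata4 encodes the transcription factor that specifies sinusoidal endothelium, and stellate cells express it too. Of 9 stellate cell markers none passed in any comparison, with medians of -0.21 and -0.26 in the 2 comparisons with PBS that follow. It was at 7.42 to 12.98 CPM in MCF10A/miR-122 EV (median 8.27) and 7.73 to 10.6 CPM in MDA-MB-231 EV (median 8.79), against 12.1 to 17.3 CPM in PBS livers (median 15.8). MDA-MB-231 EV lay wholly below PBS, where 6.22% of all genes had no overlap, and MCF10A/miR-122 EV overlapped PBS at 1 end. The log2 fold changes were -0.72 and -0.81 (SE 0.12 each, adjusted p = 0.000264 and 0.000165), held without any single liver, and again crossed the library sets. Within the sets Gata4 differed by -0.14 (MCF10A EV against PBS, adjusted p = 0.576) and -0.08 (MDA-MB-231 EV against MCF10A/miR-122 EV, adjusted p = 0.936). Maf, another regulator of sinusoidal identity, was the other call: higher in MCF10A/miR-122 EV than in MCF10A EV livers (log2 fold change 0.34, adjusted p = 0.0251), and lost without any of 4 livers or with the 12 libraries alone.

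Around Eng, the BMP and TGF-beta pathway list held 20 genes. Lower than PBS were 1 of them in MCF10A EV (Id2), 3 in MCF10A/miR-122 EV (Id2, Id3 and Smad6) and 3 in MDA-MB-231 EV (the same 3), against 1.07% of all genes called in either direction in MCF10A EV, and 9.53% and 6.34% called lower in the other 2 comparisons. Smad9, a receptor-regulated Smad of the BMP branch, and Tgfbr1, the type I receptor for TGF-beta, were higher in MCF10A/miR-122 EV, where 8.35% of all genes were. Id2 and Id3, inhibitors of basic helix-loop-helix factors, and the inhibitory Smad6 are targets of BMP signalling in many cell types, hepatocytes included. Id3 had log2 fold changes of -0.67 in MCF10A/miR-122 EV and -0.64 in MDA-MB-231 EV against PBS (adjusted p = 0.00800 and 0.0154), which held without any single liver. The Smad6 calls were weak: -0.53 (adjusted p = 0.0213) was lost without MCF10A/miR-122 EV replicate 3 or 5 or PBS replicate 2 and with the 12 libraries alone, and -0.48 in MDA-MB-231 EV had an adjusted p of 0.05 after rounding, lost without any of 9 livers. Smad9 (0.72, adjusted p = 0.0174) was lost without MCF10A/miR-122 EV replicate 3. Tgfbr1 was also higher in MCF10A/miR-122 EV and in MDA-MB-231 EV than in MCF10A EV livers, at 0.46 and 0.41 (adjusted p = 0.00189 and 0.00980), as was Bmpr2, a type II BMP receptor, in MCF10A/miR-122 EV (0.69, adjusted p = 0.0436). The Bmpr2 call was lost without any of 6 of the 12 livers (MCF10A/miR-122 EV replicates 1, 2 and 6, MCF10A EV replicates 1, 4 and 5), and the Tgfbr1 call against PBS (0.30, adjusted p = 0.0300) without any of 5 (MCF10A/miR-122 EV replicates 1, 2 and 6, PBS replicates 3 and 5). Both were also lost with the 12 libraries alone.

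Id2 was at 97.8 ± 15.8 CPM in MCF10A EV, 78.5 ± 14.8 CPM in MCF10A/miR-122 EV and 79.6 ± 12.6 CPM in MDA-MB-231 EV livers, against 145.6 ± 21.2 CPM in PBS livers (SD, n = 6 each). The highest MCF10A/miR-122 EV liver, at 106.0 CPM, and the highest MDA-MB-231 EV liver, at 98.9 CPM, were below the lowest PBS liver at 111.3 CPM, whereas MCF10A EV reached 111.9 CPM. Its log2 fold changes in that order of EVs were -0.57, -0.89 and -0.87 (SE 0.13 each, adjusted p = 0.0298, 5.19e-05 and 0.000117). The MCF10A EV call, the one inside a library set, was lost without any of 5 of the 12 livers (PBS replicates 1, 2 and 3, MCF10A EV replicates 3 and 4) and with the 12 libraries alone. Eng itself, at -0.03, -0.08 and -0.17 for the same comparisons, did not pass.

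Of 12 genes tested in the VEGF and angiopoietin list, which holds the ligands of Kdr and Tek, Vegfb alone passed. It was higher in MCF10A/miR-122 EV (21.1 ± 3.34 CPM) and MDA-MB-231 EV (19.5 ± 1.94 CPM) than in PBS livers (13.99 ± 1.68 CPM; SD, n = 6 each), with log2 fold changes of 0.59 and 0.48 (adjusted p = 0.000287 and 0.00324). Over all genes, 8.35% and 5.33% were called higher in these comparisons, so 1 of 12 is near the background. Vegfb was also higher in MCF10A/miR-122 EV than in MCF10A EV livers (log2 fold change 0.37, adjusted p = 0.0141 by edgeR). There 16.2% of all genes were called in either direction, and the Vegfb call was lost with the identities of the library names. Vegfb binds Flt1 and not Kdr. All these calls held without any single liver and cross the library sets.

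Among 11 other clearance receptors, Scarf1, a scavenger receptor of endothelial cells, was higher in MCF10A/miR-122 EV and in MDA-MB-231 EV than in PBS livers (log2 fold changes 0.51 and 0.58, adjusted p = 0.0145 and 0.00992), where 8.35% and 5.33% of all genes were called higher, and Marco in MCF10A/miR-122 EV, as given above. Cd36, a fatty acid and lipoprotein receptor that hepatocytes and macrophages also express, was lower in MCF10A EV than in PBS livers, at 10.2 ± 1.29 against 19.3 ± 6.25 CPM (SD, n = 6 each; log2 fold change -0.91, adjusted p = 0.0255), a call lost without any of 6 livers: MCF10A EV replicates 1, 3 and 4 and PBS replicates 1, 3 and 4. It was also lost with the 12 libraries alone.

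Of 9 activation and flow genes tested, Vcam1, an adhesion molecule of inflamed endothelium and of Kupffer cells, ran from 14.2 to 53.1 CPM in MCF10A/miR-122 EV livers (median 30.6), against 8.38 to 23.0 CPM in PBS livers (median 12.5). The ranges overlapped, and the log2 fold change was 1.24 (SE 0.27, adjusted p = 0.00281). Over all genes, 8.35% were called higher in this comparison and 5.33% in MDA-MB-231 EV against PBS. The higher Kupffer cell markers of the same group stand beside the Vcam1 result too, and their part in it was not tested. By the library names the log2 fold change against PBS was 0.32, with no call. Vcam1 was also higher than in MCF10A EV livers, without overlap (7.95 to 11.7 CPM there). That log2 fold change was 1.66 (adjusted p = 0.000209 by edgeR). In that comparison 16.2% of all genes were called in either direction, and 5.63% had no overlap. This call too was lost with the identities of the library names. Thbd (thrombomodulin, also on the pericentral list) passed in MDA-MB-231 EV against PBS, at 1.96 ± 0.555 against 1.23 ± 0.249 CPM (SD, n = 6 each). The log2 fold change was 0.68 (adjusted p = 0.0307 by edgeR). This call was lost without any of 6 livers, among them MDA-MB-231 EV replicates 1, 2 and 5. In MCF10A EV and MCF10A/miR-122 EV livers Thbd averaged 1.84 and 1.76 CPM. Its log2 fold changes against PBS were 0.58 and 0.53 there, short of the threshold (adjusted p = 0.156 and 0.0749 by edgeR).

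Capillary and large-vessel genes gave no common direction. Of 10 tested, Gja4 (a connexin of arterial endothelium) was higher and Darc (a chemokine scavenger of venules) lower in MCF10A/miR-122 EV than in PBS livers, with log2 fold changes of 0.87 and -0.57 (adjusted p = 0.0109 and 0.00502), and none passed in the other comparisons. In MCF10A/miR-122 EV against PBS, 8.35% of all genes were called higher and 9.53% lower. Of 6 periportal genes none passed in any comparison, and of the 5 pericentral genes tested Thbd was the sole call.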

How the data were processed

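Whole-liver RNA was sequenced from 24 libraries, 6 per treatment label. The deposited values are raw read counts per gene symbol, whole numbers that the authors left unnormalized. The submitters' processing notes list bcl2fastq (version 2.18.0.12), TopHat2 and the mouse build mm9. Per the labels' protocols RNA was taken with TRIZOL and libraries were made with a stranded mRNA kit. Counter, annotation, strand setting and multi-mapping rule: not given in the sources used here. Totals were 21336818 to 33732639 counts per library. Counting error was not separated from the spread between livers. The 27 rows sharing 11 symbols (0.0744% of counts) were left out. No 2 libraries of a group were alike within sampling noise.

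Differences in counts were assessed with edgeR's quasi-likelihood F test (version 4.0.16, R version 4.3.3, TMM scaling, filterByExpr by group, all 24 libraries in 1 fit, two-sided), with p-values adjusted by the Benjamini-Hochberg method over 13773 genes and a threshold of 0.05. SE and 95% intervals come from the F statistic and its degrees of freedom. The test was checked on simulated counts. CPM are edgeR's, on TMM-scaled sizes. Should any mouse have given more than 1 library, the p-values would reflect technical spread only. Ratios were tested by exact permutation with a pseudocount of 1 CPM, adjusted over 48 tests, and gene pairs by 100000 permutations within groups, adjusted over 45 pairs.

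The 10 genes, the lists and the tests were chosen with earlier results of these data known. Named genes are the 10, the up to 3 genes past the threshold with the smallest p per list and comparison (where none passed, the 1 with the smallest p was eligible), further list genes past the threshold in counts of 5 or fewer, which were named after their values were seen, and the 6 genes most alike in pattern among those with a mean log2 CPM of at least 1. Serpina3a was named after its values were seen. Alternatives were RLE scaling, 2 other filters (none, and at least 10 counts in every library), DESeq2 1.42.0, limma-voom 3.58.1, the 12 libraries of a comparison alone, a replicate block, the identities of the library names, and each library left out. Exon lengths and overlaps are from GENCODE M21 (GRCm38), a newer build than mm9, and no coordinates were converted.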

Additional observations from a re-analysis of the deposited data

Results flagged for a closer look

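Of 40 groups of 6 livers (10 genes, 4 treatments), 3 held a liver whose gap to its nearest neighbour was large for its group. Chance flags about 1 in 20 groups. Stab1 was at 37.7 CPM in MDA-MB-231 EV replicate 2, below 45.2 to 47.4 CPM in the other 5 livers. Pecam1 was at 5.07 CPM in MCF10A/miR-122 EV replicate 4, below 10.4 to 13.1 CPM in the others, and that liver was the lowest of its group for all 10 genes. Tek was at 10.6 CPM in PBS replicate 2, above 7.45 to 8.56 CPM in the others.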

How the results depend on the processing

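The counts of endothelial genes past the threshold were recomputed under 119 combinations of comparison and alternative, and 12 differed, all through Stab1. In MCF10A/miR-122 EV against PBS the count was 0 with limma-voom, 0 with only the 12 libraries of the comparison, 0 with the identities of the library names, and 0 to 1 with a liver left out. With the identities of the library names it was 1 in MDA-MB-231 EV against PBS. The cause was not tested. The Stab1 call held with RLE scaling (adjusted p = 0.0377), no low-count filter (0.0486), the stricter filter (0.0428) and DESeq2 (0.0253). Ratios to Pecam1 and Cdh5 gave 0 calls in all settings run, which says nothing of stability, since a lone test could not reach an adjusted p under 0.104, or 0.208 with a liver left out.

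Of 1190 recomputed log2 fold changes of the 10 genes, 1055 kept their direction and side of the threshold, 11 lost the call, 1 gained it and none reversed with a call. Another 123, without a call in either setting, changed sign. Among them are those of MDA-MB-231 EV against MCF10A/miR-122 EV with the identities of the library names, which turn round by construction (Stab1 -0.21, then 0.21). For list genes past the threshold the same alternatives were added after seeing the data. With the identities of the library names Marco in MCF10A/miR-122 EV against PBS was at -0.0699, against 0.97 with the labels, because the 2 groups exchange names. These identities ended 14 of 38 calls of list genes, and the 12 libraries alone ended 6.

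Replicate numbers did not pair the livers: 13 of 36 same-numbered pairs had r over 0.1, and 4 of 24 libraries correlated best with their own number. With the replicate block Stab1 was at 0.32 (adjusted p = 0.0373), and the block changed no call of the 10 genes. Of 38 calls of list genes it ended 3 (Id2 in MCF10A EV against PBS, Smad6 in MDA-MB-231 EV against PBS, Bmpr2 in MCF10A/miR-122 EV against MCF10A EV), and the Kupffer cell markers called in MCF10A/miR-122 EV against PBS numbered 4.

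Counts over all genes moved more. MCF10A EV against PBS gave 147, with 26 (without PBS replicate 3) to 741 (without PBS replicate 5) when a liver was left out, 414 with DESeq2 and 27 with the 12 libraries alone. MDA-MB-231 EV against MCF10A/miR-122 EV gave 35, with 13 to 82, 98 and 23. With the identities of the library names, counts against MCF10A EV and PBS exchange between the 2 groups. With 108 to 2385 counts per gene and liver, depth limits the low genes most: Pecam1 had 269 to 386 counts in PBS livers.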
